A study of Mus musculus with 4 samples.

Results

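Glutathione transferases, glutathione peroxidases, peroxiredoxins and the enzymes that make and recycle glutathione were examined in gonadal white adipose tissue (WAT) of male NMRI mice. Members were the probe sets whose gene symbol begins with Gsta, Gstm, Gstp, Gstt, Gsto, Gstk, Gstz, Mgst, Gpx or Prdx and a digit, together with Gclc, Gclm, Gss and Gsr. The rule found 39 of 21225 probe sets, with 1 probe set per gene. Both groups were fed a standard diet until the age of 40 days. FD mice then received a fat diet with 18% fat for 8 days, while ND mice stayed on the normal diet with 3.3% fat, and all were 48 days old when the fat pads were taken. The diets came from different suppliers and differed in more than fat content. The sample titles call the FD arrays high fat diet. RNA of 3 mice was pooled for each diet and each pool was hybridised to 2 Affymetrix mouse gene arrays, so each diet is 1 biological sample measured on a pair of technical duplicates. No test of the diets is possible with such a design.

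Glutathione is a small thiol peptide that cells use to trap electrophiles and to reduce peroxides. Glutathione transferases (GSTs) couple it to reactive lipids, drugs and aldehydes, glutathione peroxidases spend it on hydrogen peroxide or lipid peroxides, and peroxiredoxins remove peroxides with electrons from thioredoxin. Many of these genes are targets of Nrf2, a transcription factor that responds to oxidative and electrophilic stress. In WAT, GSTs such as Gsta4 clear aldehydes that arise from peroxidised fat, and in the male reproductive tract several GSTs and peroxidases are secreted or strongly expressed in the epididymis, which lies against the gonadal fat pad.

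The values are log2 expression levels, and each difference is the FD mean minus the ND mean. A probe set was called if it passed 3 conditions. It had to differ by 1.5-fold or more (0.585 in log2 units), the FD and ND arrays could not overlap, and its level averaged over all 4 arrays had to reach 6. Of the 39 members, 38 reached that level, and Gpx5 did not. Called lower in FD were 8 of the 38, or 21.1%, against 4.28% of all 18211 probe sets at that level. None of the 38 was called higher, against 1.33% of all probe sets. Relative to 22 adipocyte genes, whose median difference was 0.14, 120 of all probe sets were called higher and 1115 lower, compared with 242 and 780 as deposited, and 10 members were called lower in that scaling. The members called lower were Gstm7, Gstm6, Gstm5, Gstm4 and Gstm2 of the mu class, the pi class gene Gstp1, the extracellular peroxidase Gpx3 and Gclm. Their differences ran between -3.97 and -0.66. With no filter on level and with a filter at 7 the members called lower numbered 8, against 3.87% and 4.61% of all probe sets, and none was higher, against 1.36% and 1.41%. At 1.3-fold 11 members were lower, against 7.32%, and 1, Gstt2, was higher, against 4.77%. At 2-fold Gstm5, Gstm6, Gstm7 and Gpx3 were the 4 called lower, against 2.12%. Whatever the size, 17 members had both FD arrays below both ND arrays, against 27.2% of all probe sets, and 8 had them above, against 36.3%. The median difference over the 38 members was -0.09, and over all probe sets at that level it was 0.03. In a pool of whole tissue, fewer cells of a type and less RNA per cell cannot be told apart.

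**Figure D1:**
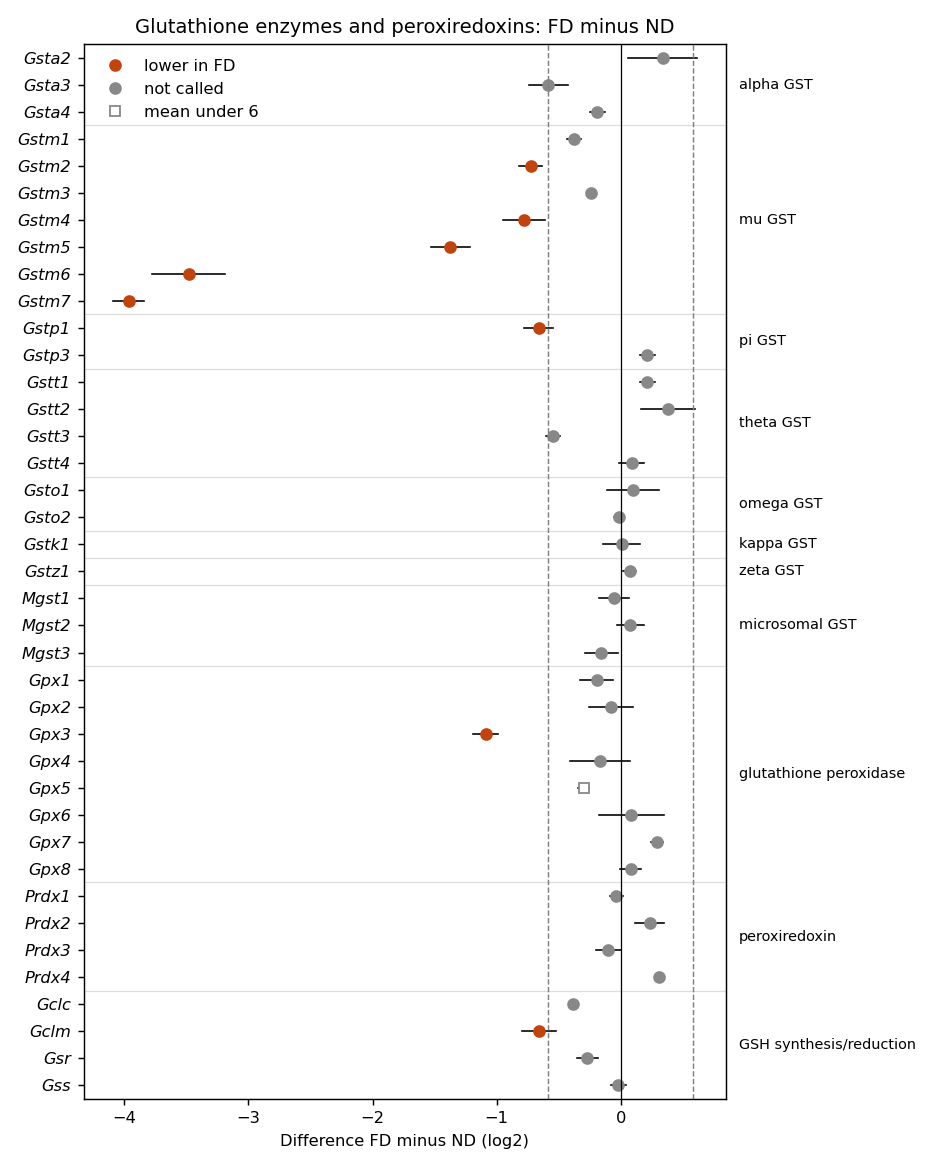
Difference between FD and ND on the log2 scale (x axis) for the 39 members (y axis), grouped by family. Points are the difference of the means of 2 arrays of 1 RNA pool per diet, bars run between the smallest and the largest difference of any FD array from any ND array, and dashed lines mark 1.5-fold. Gstm6 and Gstm7 stand apart at -3.48 and -3.97, and no point reaches the upper dashed line.

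The mu class held the largest differences. Its genes lie side by side on mouse chromosome 3, where the RefSeq annotation of GRCm38.p6 orders them Gstm5, Gstm7, Gstm6, Gstm3, Gstm2, Gstm1 and Gstm4. The neighbours Gstm5, Gstm7 and Gstm6 had the 3 largest differences of the class, and the next gene, Gstm3, had the smallest. RefSeq windows running from 250 bases before a gene's start to 50 bases after it are shown for these 4 neighbours and for Gclm, because these genes share a class or a stress response but differ in size of change. Capitals mark matches, on either strand, to TGACNNNGC, the core of the antioxidant response element that Nrf2 binds. For Gstm7 the window with a match is shown, which is 1 of 2, and for Gstm6 the first of 3 listed.
Gstm5, chr3:107895604-107895903, plus strand: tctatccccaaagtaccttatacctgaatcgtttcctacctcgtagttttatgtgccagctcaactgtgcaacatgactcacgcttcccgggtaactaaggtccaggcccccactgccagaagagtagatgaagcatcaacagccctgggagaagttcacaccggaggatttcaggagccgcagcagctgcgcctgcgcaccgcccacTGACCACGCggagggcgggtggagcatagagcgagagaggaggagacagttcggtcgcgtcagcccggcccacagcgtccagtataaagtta
Gstm7, chr3:107931565-107931864, minus strand: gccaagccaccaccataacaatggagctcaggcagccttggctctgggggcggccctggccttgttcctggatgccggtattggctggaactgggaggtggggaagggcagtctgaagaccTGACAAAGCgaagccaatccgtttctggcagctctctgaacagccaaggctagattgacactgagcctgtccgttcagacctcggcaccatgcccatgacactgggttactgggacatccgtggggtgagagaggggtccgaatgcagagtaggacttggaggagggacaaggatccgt
Gstm6, chr3:107953417-107953716, minus strand: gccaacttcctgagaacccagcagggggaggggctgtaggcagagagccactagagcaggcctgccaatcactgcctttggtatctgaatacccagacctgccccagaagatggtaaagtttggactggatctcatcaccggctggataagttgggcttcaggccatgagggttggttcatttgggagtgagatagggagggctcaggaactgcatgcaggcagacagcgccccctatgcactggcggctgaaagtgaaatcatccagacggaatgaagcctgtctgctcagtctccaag
Gstm3, chr3:107969125-107969424, minus strand: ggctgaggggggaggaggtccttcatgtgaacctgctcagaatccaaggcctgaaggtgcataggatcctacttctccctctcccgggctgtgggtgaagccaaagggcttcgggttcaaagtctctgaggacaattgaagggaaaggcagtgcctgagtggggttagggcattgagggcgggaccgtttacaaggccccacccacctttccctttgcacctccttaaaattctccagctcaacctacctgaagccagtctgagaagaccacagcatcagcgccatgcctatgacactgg
Gclm, chr3:122245307-122245606, plus strand: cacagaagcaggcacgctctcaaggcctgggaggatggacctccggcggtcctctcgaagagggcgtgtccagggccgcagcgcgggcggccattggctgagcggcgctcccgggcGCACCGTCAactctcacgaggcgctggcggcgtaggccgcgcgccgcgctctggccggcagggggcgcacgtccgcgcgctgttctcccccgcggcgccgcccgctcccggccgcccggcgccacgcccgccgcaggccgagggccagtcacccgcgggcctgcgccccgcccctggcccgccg
Counted from the start of the gene, the match begins at position -42 in Gstm5, at -129 in Gstm7 and at -134 in Gclm, where it is on the opposite strand. No match was found in the windows of Gstm6 and Gstm3. Of the 39 members, 35 had a window, and 6 of these held a match in any of their windows, or 17.1%, against 13.99% of 27025 genes. Matches were found in 3 of the 8 members called lower and in 3 of 27 that were not called, which were Gsta3, Mgst1 and Prdx1. The TATA motif TATAAA, searched on both strands, was found in 7 of the 35 members, or 20.0%, against 15.7% of all genes, and it does not overlap the other motif in the windows shown. A match is a stretch of letters and not a measured binding site.

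Gstm7 had 8.71 and 8.64 on the FD arrays, against 12.55 and 12.73 on the ND arrays. The diets were separated by 3.84 and the arrays of a diet by at most 0.18. Its difference of -3.97 ± 0.10 (SE from the 2 arrays per diet) corresponds to 15.6-fold lower expression in FD, and it ranked 31 of 18211 probe sets counted from the most negative. Gstm6 had 6.51 and 6.74 in FD, against 9.92 and 10.29 in ND. This gene was close to the level of 6 in FD, so the size of its difference, -3.48 ± 0.21, is limited by the signal there. Gstm5 had 8.65 and 8.76 in FD, against 9.97 and 10.18 in ND. Again the arrays did not overlap, and the difference was -1.37 ± 0.12, or 2.59-fold.

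The other 4 mu genes differed less. Gstm4 had 10.69 and 10.66 in FD, against 11.30 and 11.61 in ND, a difference of -0.78 ± 0.15. Gstm2 had 10.78 and 10.69 in FD, against 11.41 and 11.51 in ND, a difference of -0.73 ± 0.06. Both were called lower. Gstm1, the main mu enzyme of mouse liver, had 11.85 and 11.86 in FD, against 12.28 and 12.18 in ND. Its difference of -0.38 did not reach 1.5-fold, although the arrays of the diets were 0.32 apart. Gstm3 had 7.15 and 7.12 in FD, against 7.40 and 7.36 in ND, and its difference was -0.24. Thus 5 of 7 mu genes were called lower, against 4.28% of all probe sets. All 7 had both FD arrays below both ND arrays, as did 27.2% of all probe sets. Mu genes are close paralogs whose transcripts may cross-hybridise, so the values of single genes are uncertain.

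**Figure D2:**
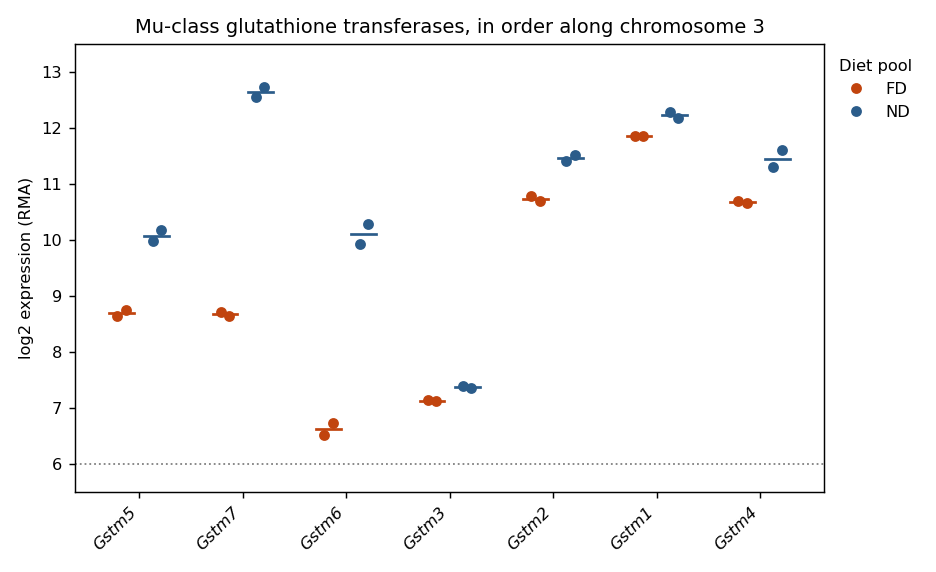
Log2 expression (y axis) of the 7 mu class genes in their order along chromosome 3 (x axis). Points are single arrays, 2 per diet from 1 RNA pool, short lines their means, and the dotted line the level of 6. Gstm7 lies at 8.71 and 8.64 in FD and at 12.55 and 12.73 in ND, while Gstm3, 2 places further on, differs by 0.24.

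The alpha class enzymes, which conjugate lipid peroxidation products and steroids, gave no call. Gsta3 came nearest to the threshold, with 10.22 and 10.30 in FD, against 10.73 and 10.96 in ND. Its difference of -0.58 ± 0.12 fell just short of 1.5-fold as deposited, and it was called lower without FD array 2 (-0.62), without ND array 1 (-0.70) and relative to the adipocyte genes (-0.72). Gsta4, the 4-hydroxynonenal-conjugating enzyme of adipocytes, had 11.30 and 11.31 in FD, against 11.55 and 11.44 in ND, and its difference was -0.19. Gsta2 had 7.44 and 7.43 in FD, against 7.37 and 6.82 in ND. Here the ND arrays were further apart from each other than the diets were, and the gene was called higher only when ND array 1 was left out (0.61). Gstp1, the pi class enzyme of most mouse tissues, had 10.21 and 10.23 in FD, against 10.77 and 10.98 in ND. It was called lower with a difference of -0.66 ± 0.11, but not without ND array 2 (-0.56). The arrays of its paralog Gstp3 were apart in the opposite direction, with a difference of 0.21.

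The theta class, which acts on small halogenated compounds, had differences in both directions and no call. Gstt3 had 9.29 and 9.21 in FD, against 9.78 and 9.81 in ND, a difference of -0.55 ± 0.04. It was under the threshold with all arrays and passed it without FD array 1 (-0.59) and relative to the adipocyte genes (-0.69). Gstt2 had 9.87 and 9.92 in FD, against 9.32 and 9.70 in ND, and its difference was 0.38 ± 0.19. Gstt1 and Gstt4, which lie between them on chromosome 10, had differences of 0.22 and 0.09.

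The remaining transferases were nearly level between the diets. Gsto1, a thioltransferase that also reduces dehydroascorbate, had the largest difference of its class, with 9.085 and 8.998 in FD, against 8.774 and 9.104 in ND, and the arrays overlapped. Gsto2 differed by -0.02 and Gstk1, of mitochondria and peroxisomes, by 0.01, with 10.66 and 10.68 in FD, against 10.53 and 10.80 in ND. Gstz1, an enzyme of tyrosine breakdown, had 12.64 and 12.62 in FD, against 12.52 and 12.60 in ND. Among the membrane-bound Mgst genes, Mgst3 had the largest difference, at -0.15, with 10.02 and 9.99 in FD, against 10.04 and 10.27 in ND, while Mgst1 and Mgst2 had -0.06 and 0.08. Outside the mu class, 1 of 16 transferases was called lower, or 6.25%, against 4.28% of all probe sets, and none was called higher, against 1.33%, and their median difference was 0.04, against -0.78 in the mu class.

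Of the 8 glutathione peroxidases, 7 were measured and 1 was called lower, or 14.3%, against 4.28% of all probe sets. Gpx3, the selenoenzyme secreted into plasma, had 12.20 and 12.16 in FD, against 13.19 and 13.35 in ND. The diets were 0.99 apart, and the difference of -1.09 ± 0.08 corresponds to 2.13-fold lower expression in FD. Gpx1, the cytosolic selenoenzyme, had 12.22 and 12.18 in FD, against 12.29 and 12.50 in ND, and was not called at -0.19. Gpx4, which reduces peroxides within membrane lipids and guards against ferroptosis, had 8.48 and 8.18 in FD, against 8.41 and 8.59 in ND. Its arrays overlapped. Gpx2, the enzyme of the gut lining, had 6.36 and 6.35 in FD, against 6.26 and 6.60 in ND, and also overlapped.

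The remaining peroxidases include the one named for the epididymis. Gpx5, secreted by the head of the epididymis and without selenocysteine, had 4.45 and 4.50 in FD, against 4.75 and 4.80 in ND. All 4 arrays were under 6. Gpx6, known from the olfactory epithelium, had 6.347 and 5.951 in FD, against 5.996 and 6.129 in ND, and overlapped around the level of 6. Gpx7 and Gpx8, which act in the endoplasmic reticulum, had differences of 0.29 and 0.08, and only the arrays of Gpx7 did not overlap.

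The genes of glutathione synthesis and reduction gave 1 call. Gclm, the modifier subunit of glutamate-cysteine ligase, the enzyme that limits glutathione synthesis, had 9.94 and 10.01 in FD, against 10.53 and 10.74 in ND. It was called lower with a difference of -0.66 ± 0.11, or 1.58-fold, but not without ND array 2 (-0.56). Gclc, the catalytic subunit, had 10.07 and 10.10 in FD, against 10.46 and 10.48 in ND. Its arrays were 0.36 apart and its difference was -0.39 ± 0.02. Gsr, which recycles oxidised glutathione, had 10.18 and 10.11 in FD, against 10.36 and 10.46 in ND, a difference of -0.27. For Gss, which adds glycine in the last step, the arrays overlapped at 8.82 and 8.80 in FD, against 8.78 and 8.88 in ND.

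**Figure D3:**
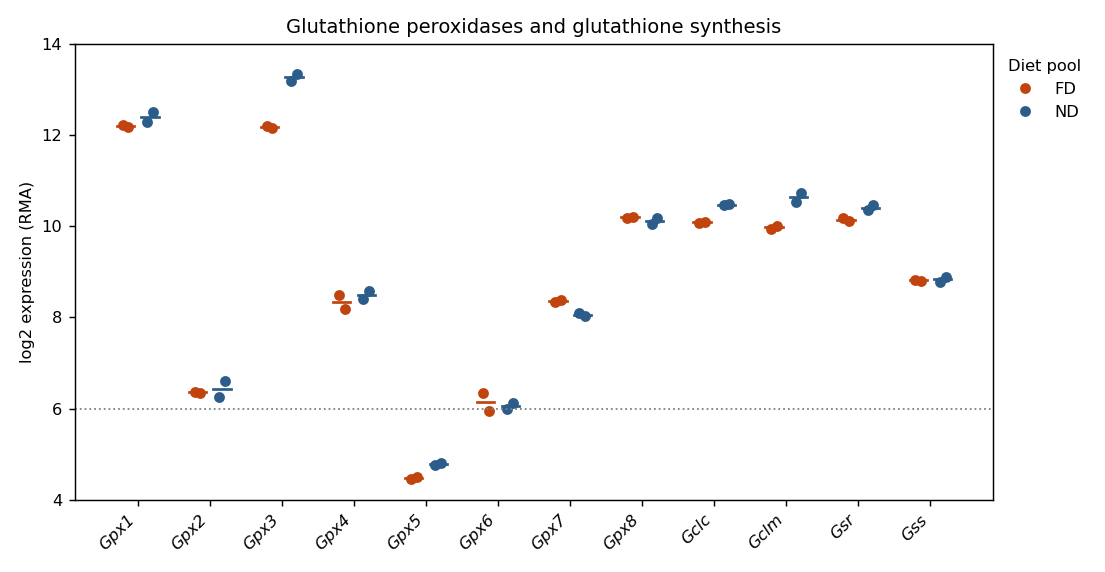
Log2 expression (y axis) of 8 glutathione peroxidases and 4 genes of glutathione synthesis and reduction (x axis) on each array, with 2 arrays of 1 RNA pool per diet. Short lines are means and the dotted line is the level of 6. The difference is -1.09 for Gpx3 and -0.66 for Gclm, and Gpx5 lies under 6 on all 4 arrays.

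None of the 4 peroxiredoxins measured was called, and their median difference was 0.10. The rule found no probe set for any Prdx gene beyond Prdx1 to Prdx4, so the class may be incomplete here. Prdx4, the enzyme of the secretory pathway, had the largest difference, with 9.99 and 9.94 in FD, against 9.66 and 9.65 in ND. The arrays of the diets were apart by 0.27, and the difference was 0.31 ± 0.03. Prdx2 of the cytosol also had both FD arrays above both ND arrays, with a difference of 0.23. Prdx1 of the cytosol and Prdx3 of mitochondria overlapped, with differences of -0.04 and -0.10.

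Genes that supply the family with substrate, or that are known to respond to the same stress, were read from lists of related genes. Of 93 measured genes, 9 were called lower, or 9.68%, against 4.28% of all probe sets, and 1 was called higher, or 1.08%, against 1.33%. The median difference over the 93 was 0.02. Among 28 genes of glutathione supply and turnover, 4 were lower, or 14.3%, against 4.28% of all probe sets. Slc7a11, the cystine-glutamate exchanger that brings in cystine for glutathione synthesis, had 6.84 and 6.76 in FD, against 9.25 and 9.05 in ND. The difference of -2.36 ± 0.11 was the largest of the related genes, and its size is limited by the low signal in FD. Cth, which releases cysteine from cystathionine, had 9.15 and 9.08 in FD, against 10.62 and 10.40 in ND, and Cbs, the step before it, had 8.08 and 7.94 in FD, against 8.63 and 8.58 in ND. Both were called, at -1.40 and -0.59, and the call of Cbs was lost without FD array 2 (-0.52), without ND array 1 (-0.57) and with arrays centred on their medians (-0.55). Abcc3, an exporter of organic anions and conjugates, had 8.64 and 8.68 in FD, against 10.08 and 9.97 in ND, a difference of -1.36. Slc3a2, the partner chain of Slc7a11, differed by -0.17, and Slc1a4 and Me1, at -0.52 and 0.50, had the largest differences of those not called. Without ND array 1, Me1 was called higher (0.64).

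Of 18 genes of the thioredoxin and glutaredoxin system 1 was called lower, or 5.56%, close to the 4.28% of all probe sets. This was Srxn1, sulfiredoxin, which restores overoxidised peroxiredoxins. It had 9.06 and 9.10 in FD, against 10.20 and 10.37 in ND, a difference of -1.21 ± 0.09. The thioredoxin reductase genes Txnrd2 and Txnrd1 followed with 0.35 and -0.26 and were not called. Of 19 genes of the Nrf2 pathway, 2 were lower, or 10.5%, against 4.28% of all probe sets. Nqo1, a quinone reductase, had 7.47 and 7.68 in FD, against 9.39 and 9.41 in ND, a difference of -1.83 ± 0.11. Aldh3a1, an aldehyde dehydrogenase, had 7.14 and 7.12 in FD, against 7.78 and 7.79 in ND, a difference of -0.65. The gene of Nrf2 itself, Nfe2l2, overlapped between the diets at 11.26 and 11.27 in FD, against 11.21 and 11.49 in ND, and its inhibitor Keap1 differed by 0.01. These are RNA levels, and the activity of the Nrf2 protein was not measured. Hmox1, the heme oxygenase gene and a classical Nrf2 target, overlapped too, with 9.32 on both arrays in FD, against 8.97 and 9.53 in ND. Cbr3 and Ephx1 had the largest differences among those not called, at -0.48 and 0.39, and Cbr3 was called lower without ND array 1 (-0.66). Of 5 superoxide dismutase and catalase genes none was called, with Sod3 at 0.27 and Ccs at 0.20 the furthest from 0.

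**Figure D4:**
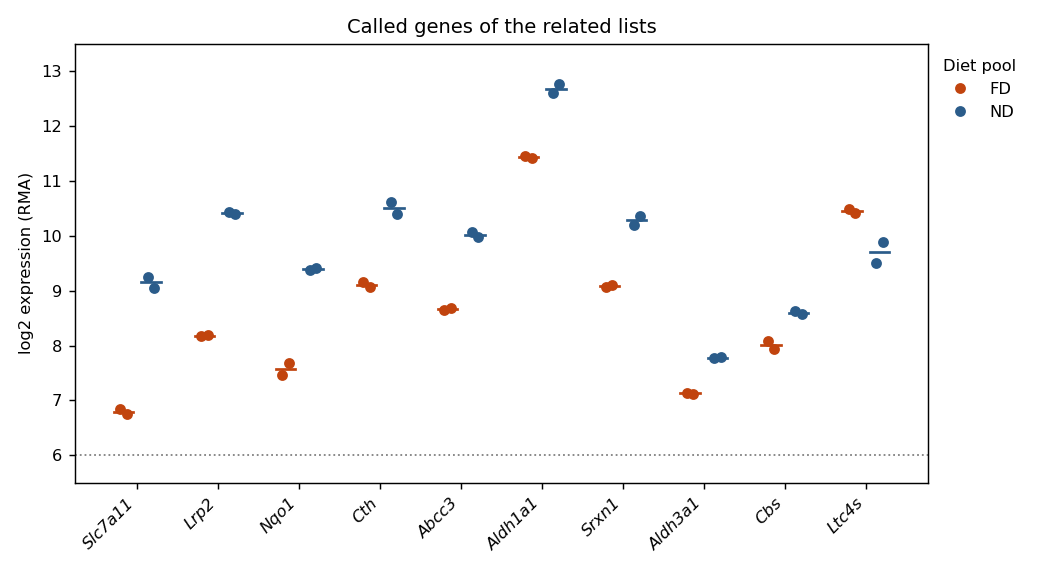
Log2 expression (y axis) of the 10 called genes of the related lists (x axis), ordered by their difference, on each array, with 2 arrays of 1 RNA pool per diet. Short lines are means and the dotted line is the level of 6. Slc7a11 at the left differs by -2.36, and Ltc4s at the right is the only one higher in FD.

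Selenium supply and the fate of lipid aldehydes and leukotrienes gave single calls. Lrp2, megalin, an endocytic receptor of absorptive epithelia that takes up selenoprotein P in the kidney, had 8.17 and 8.19 in FD, against 10.43 and 10.40 in ND. It was the 1 of 11 genes of selenoprotein synthesis and supply called lower, or 9.09%, against 4.28% of all probe sets. Its difference was -2.24 ± 0.02, while Scly and Lrp8 had 0.32 and 0.25. Selenop, the gene of selenoprotein P, differed by 0.15. Of 7 genes of lipid aldehyde metabolism 1 was lower, or 14.3%, against 4.28% of all probe sets. This was Aldh1a1, a retinaldehyde dehydrogenase, with 11.46 and 11.41 in FD, against 12.61 and 12.77 in ND. Adh5 and Aldh3a2 had -0.36 and -0.19. Of 5 eicosanoid genes 1 was called higher, or 20.0%, against 1.33% of all probe sets, and none lower. This was Ltc4s, which couples glutathione to leukotriene A4 and belongs to the same membrane protein family as the Mgst genes. It had 10.49 and 10.41 in FD, against 9.51 and 9.90 in ND, a difference of 0.75 ± 0.19, and was not called without ND array 1 (0.55). Ptges and Alox5ap of that list had -0.24 and 0.20.

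Marker lists of other cell types differed between the diets in both directions. On a list of epididymal genes 18 were measured, of which 14 were called lower in FD and none higher, against 4.28% and 1.33% of all probe sets. In 8 of these 14 both FD arrays were at 6 or above. The median difference of the list was -4.83, and -4.20 with values under 6 set to 6, an alternative chosen after seeing the data. Adam7 and Defb22 were under 6 on both FD arrays, and with that floor their differences were -6.64 and -5.50. The mean log2 level of the list was 6.83 and 6.78 on the FD arrays, against 10.18 and 10.28 on the ND arrays, and 6 of its 19 genes were under 6 on both FD arrays, against 1 on both ND arrays. A list of simple epithelium had 6 of 7 genes lower, against 4.28% of all probe sets, with Krt18 and Cdh1 at -1.67 and -1.65, and a mean level of 9.35 and 9.31 in FD, against 10.49 and 10.52 in ND. The median difference of the simple epithelium list was -1.12. Medians were positive for the adipocyte, liver, brown adipocyte, macrophage, fibroblast, mesothelial and endothelial lists, and -0.13 for erythroid genes. The epididymal genes Lcn8, Lcn9, Cst11 and Ros1 were not called, with differences of 0.15, 0.16, 0.13 and -0.31, and Gpx5 was under 6 throughout. Averaged over all 4 arrays, Lcn8, Lcn9, Cst11 and Ros1 had levels of 6.28, 6.81, 7.31 and 6.88. Such low signal limits how far a level could fall, but not how far it could rise. On the ND arrays Lcn8 had 6.10 and 6.30, and Lcn9 had 6.64 and 6.81. Cst11 had 7.18 and 7.30 there, and Ros1 had 7.04 and 7.03. Whether epididymal or other epithelial RNA in the ND pool had a part in the differences of the GST genes was not tested. The same holds for Gpx3 and for related genes such as Lrp2 and Aldh1a1. With 1 pool per diet the makeup of the pool and the diet cannot be told apart.

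High levels of adipocyte genes match the label of the tissue, but do not show that a pool held adipose tissue alone. On the ND arrays the epididymal genes Ces5a and Adam7 had 13.39 and 13.36, and 12.65 and 12.62. The mean of the whole epididymal list was 10.18 and 10.28 there. None of the 22 adipocyte genes measured was under 6 on both arrays of a diet. Their mean level was 12.86 and 12.84 in FD, against 12.64 and 12.73 in ND. Of these genes 1, Gpd1 at 0.61, was called higher, followed by Aqp7 at 0.42. Several other lists had more genes called higher than the 1.33% of all probe sets. Called higher were 11 of 14 liver genes, with Alb at 4.14 and Ahsg at 2.25, and 1, G6pc at -0.80, was lower, against 4.28%. The mean liver level was 7.94 and 8.00 in FD, against 6.76 and 6.83 in ND, and 2 of the 17 genes on the array were under 6 on both FD arrays, against 3 on both ND arrays. Of brown adipocyte genes 4 of 7 were higher (Ucp1 at 2.15, Cidea at 1.13), as were 6 of 7 mesothelial genes (Msln at 1.25, Upk1b at 1.10), 5 of 9 fibroblast genes (Thy1 at 0.79, Col5a2 at 0.75), 4 of 13 macrophage genes (Lyz1 at 1.10, Itgam at 0.64) and 1 of 7 endothelial genes (Robo4 at 0.72, Tek at 0.39). None of 4 erythroid genes was called, with Hbb-b1 at -0.38 and Alas2 at -0.30. The part of these cell types in the values of the members and related genes, such as Gpx7, Prdx4 and Ltc4s, was not tested.

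**Figure D5:**
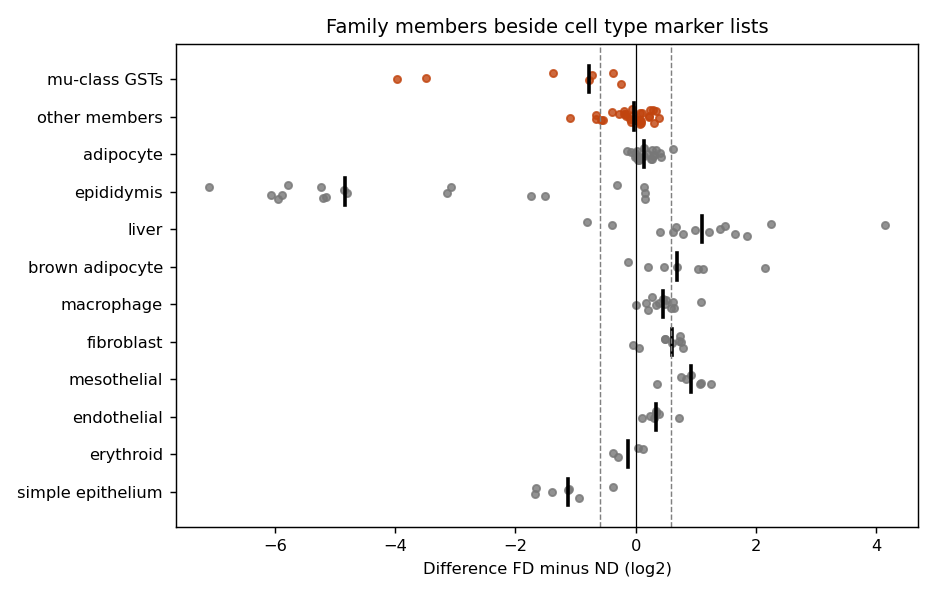
Difference between FD and ND on the log2 scale (x axis) for the mu GSTs, the other members and the cell type marker lists (y axis). Points are genes at a mean level of at least 6, black bars medians, and dashed lines 1.5-fold, with 1 RNA pool and 2 arrays per diet. The medians are -0.78 for the mu GSTs, -0.02 for the other members, 0.14 for adipocyte genes and -4.83 for epididymal genes, of which 5 were under 6 on both FD arrays.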

How the data were processed

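Each diet contributed pooled gonadal WAT RNA of 3 mice, run on 2 Affymetrix mouse gene arrays. The authors deposited log2 expression values made with RMA, which corrects background, normalizes between arrays and gives 1 value per probe set, a step that compresses differences of dim genes. For the RMA software, its version and the probe sets' genome build, the sources used here give nothing. Symbols came from the platform table, and all 39 members matched RefSeq (GRCm38.p6) by Entrez number. There is no read depth, and precision is limited by the number of arrays. Between duplicates, members differed by a median of 0.05 in FD and 0.14 in ND, and by at most 0.40 and 0.54. SE and ± cover array noise only.

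The rule of size stands in place of a test. It was tried on simulated arrays whose spread came from the duplicate arrays of each pool. Such arrays hold no variation between mice or pools, so they cannot vouch for differences between the diets. The alternatives tried were thresholds of 1.3-fold and 2-fold, a filter at 7 or none, arrays centred on medians, cyclic loess (limma 3.58.1), scaling to the adipocyte genes, values under 6 set to 6 and each array left out. The family and all lists were chosen with earlier results of these data known, so counts over them are no independent evidence. Values by array are given for called members, those with non-overlapping arrays and a difference of at least 0.4, Gpx1 to Gpx6, the glutathione synthesis genes and the largest difference of each subfamily. Of related and marker lists, called genes (related only) and up to 2 more per list are named. Others named, such as Gsta4, Gstm1, Gstm3, Nfe2l2, Keap1, Hmox1, Slc3a2, Selenop, Ces5a, Lcn8, Lcn9, Ros1 and Cst11, were chosen after their values were seen. Of 97 related genes listed, 93 were named on the array. Python 3.11.15 and R 4.3.3 were used.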

Additional observations from a re-analysis of the deposited data

How the results depend on the processing

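The 18 called members and related genes kept the sign of their difference in all alternatives tried. At 1.3-fold 1 member was higher in FD (against 4.77% of all probe sets), at 2-fold 4 members were lower in FD (against 2.12%). Related genes higher in FD numbered 4 of 93 at 1.3-fold, against 4.77% of all probe sets, and 0 at 2-fold, against 0.225%. The median difference of members was -0.23 relative to the adipocyte list, which shifts all differences by 0.14. With 1 array left out, the members called higher numbered 0 to 1 and those lower 6 to 9, related genes higher 1 to 1 and lower 8 to 9, and the members' median lay between -0.15 and -0.04. Of all 18206 to 18243 probe sets measured in those settings, 260 to 328 were called higher and 753 to 890 lower. Of the 8 members called lower, 6 were so without any 1 array (not Gstp1 and Gclm), and all 8 with median centring, cyclic loess and the adipocyte scaling. No paired analysis was possible because the result comes from no test, and the array numbers repeat 1 pool. The cause of these changes was not tested, beyond the threshold itself. Gpx5, under 6 on all arrays, and Gpx6, Gpx2, Gstm6 and Slc7a11 in FD, near 6, are limited by signal over background.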
